A study of Mus musculus with 40 samples.

Results

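The genes that build cholesterol and fatty acids were followed through all 40 libraries of a mouse RNA-seq series on skin and mast cells. A list of 34 names was matched to the table by symbol, older mm9 symbols included, so that Msmo1 was read from the row named Sc4mol. This gave 33 genes of the 23304 symbols in the table: 17 sterol synthesis enzymes, 9 fatty acid synthesis genes, 5 regulators and sterol carriers, and 2 efflux transporters. Hmgcs1 has 2 rows, of which the row with the higher mean was used. That row lies on chr13_random of mm9, and the values of the other row are not given here. How reads were divided between the rows is unknown. Each of the 10 groups held 4 libraries.

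Ear skin came from mice in which Cre stands at the Mrgprd locus, the gene of a receptor of nonpeptidergic sensory neurons. The allele, Mrgprdtm1.1(cre)And on the B6.129S1(Cg) background, was carried alone (Cre) or together with Gt(ROSA)26Sortm1(HBEGF)Awai on C57BL/6, which places the diphtheria toxin receptor in cells that express or once expressed Cre (DTR). Toxin was given for 3 to 4 weeks to both strains by the design text. The treatment labels of the Cre samples name only acetone and olive oil, the solvent that DTR mice received too, so whether the controls had toxin is not settled. Wild-type C57BL/6J ears received 50 mM β-alanine, a ligand of the Mrgprd receptor, or PBS once daily over 2 days. Skin mast cells were isolated by sorting from Cre and DTR mice. Other mast cells were grown from the peritoneum and kept for 6 h in glutamate-free buffer with vehicle or 4 mM glutamate, or for 48 h with vehicle or 50 uM NS102, which the design text describes as a glutamate receptor antagonist. No age of the animals was given, and nothing in the labels says that replicates were separate animals or cultures, so p-values measure the spread between these libraries, which may be technical. The skin samples are labelled epidermal, whereas the design text names whole ear. Muscle and adipocyte markers were present in every skin group.

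Cholesterol is made from acetyl-CoA through mevalonate and squalene, and fatty acids are made from the same acetyl-CoA by carboxylation, chain synthesis, elongation and desaturation. Both routes are controlled by the SREBP transcription factors (Srebf1, Srebf2), which the escort protein Scap carries to the Golgi for cleavage and which Insig1 holds in the endoplasmic reticulum when sterols are plentiful. SREBP2 is known mainly for sterol genes and SREBP1 for fatty acid genes. In skin, sebaceous glands and keratinocytes make much of the local lipid, while Abca1 and Abcg1, genes driven by liver X receptors, export cholesterol from cells.

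Promoters are shown because the sterol genes below moved together in NS102-treated cells and SREBP factors bind at promoters. RefSeq promoters (build GRCm38.p6, 250 bases before to 50 after the start) were matched for 25 of the 33 members. None was found for Fads1, Fdft1, Fdps, Scd1, Scd2, Stard4, Abcg1 and Sqle, so several genes with large NS102 changes are not covered. The 250 bases before the start of 4 genes are printed on the strand of the gene: chr13:119690101-119690350 (plus strand), chr8:64733579-64733828 (minus), chr15:82147019-82147268 (plus) and chr11:120824548-120824797 (minus). Capitals mark TCACNCCA, a shortened sterol regulatory element, and CCAAT, the site of the factor NF-Y, on either strand. The first 3 genes are those with TCACNCCA, and Fasn, the fatty acid synthase, is shown as a fatty acid gene with a large change that lacks it.
Hmgcs1: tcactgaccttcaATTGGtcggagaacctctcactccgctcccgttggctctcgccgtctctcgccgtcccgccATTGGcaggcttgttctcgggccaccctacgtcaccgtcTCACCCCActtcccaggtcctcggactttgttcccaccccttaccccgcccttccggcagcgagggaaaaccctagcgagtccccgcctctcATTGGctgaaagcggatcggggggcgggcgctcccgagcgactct
Msmo1: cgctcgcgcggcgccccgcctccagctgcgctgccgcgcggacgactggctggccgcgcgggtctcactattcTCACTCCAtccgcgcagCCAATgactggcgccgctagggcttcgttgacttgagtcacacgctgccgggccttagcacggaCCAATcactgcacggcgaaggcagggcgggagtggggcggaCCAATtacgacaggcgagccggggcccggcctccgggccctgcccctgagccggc
Srebf2: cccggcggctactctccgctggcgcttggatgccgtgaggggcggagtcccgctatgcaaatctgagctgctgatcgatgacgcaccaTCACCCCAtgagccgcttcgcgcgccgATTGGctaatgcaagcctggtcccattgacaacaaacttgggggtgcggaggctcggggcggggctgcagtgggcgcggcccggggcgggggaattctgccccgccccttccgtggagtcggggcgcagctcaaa
Fasn: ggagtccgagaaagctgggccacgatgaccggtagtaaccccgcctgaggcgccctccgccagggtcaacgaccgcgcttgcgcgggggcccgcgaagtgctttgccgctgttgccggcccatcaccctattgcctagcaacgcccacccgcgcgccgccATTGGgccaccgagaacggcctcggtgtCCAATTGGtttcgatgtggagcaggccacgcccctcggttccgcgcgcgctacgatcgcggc

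TCACNCCA was found on either strand in 3 of the 25 member promoters and in 4.97% of the 27025 genes with a promoter. It was 1 of 4 spellings tried and was kept for display after its matches were seen. TCACNCCAC occurred in 1 member promoter and 1.44% of genes, TCACNCNAC in 2 members and 3.15% of genes, and ATCACNCC in 1 member and 2.94% of genes. Some of these spellings overlap each other. CCAAT occurred in 20 of 25 members and 41.1% of genes, the palindrome CACGTG in 6 members and 8.09% of genes, and the GC box GGGCGG in 21 members and 38.2% of genes. A match is a description of letters in this window and shows no binding.

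Expression was read as FPKM, fragments scaled by transcript length and by library total, which allows levels to be set side by side across genes. Total FPKM ranged from 117574 to 508485 per library and the read depth is unknown. Replicates correlated with each other at Pearson r from 0.939 to 0.999 across genes, lowest among the sorted Cre libraries. Changes were tested with limma on log2(FPKM + 1) over every gene that reached 1 FPKM in 4 or more of the compared libraries, and a gene passed at an adjusted p under 0.05. Log2 changes are on that scale, which understates changes of low genes. Transcripts of Xist and of Y-linked genes place the sexes unevenly: the Cre and DTR skin libraries carried Xist at 24.5 to 37.1 FPKM, while β-alanine and PBS skin and both sorted groups had the Y-linked Ddx3y at 4.42 FPKM or more in every library. Neither comparison within skin nor the comparison within sorted cells mixes the sexes.

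Skin held far more of these transcripts than mast cells. All 33 members were at 1 FPKM or more in every skin library, and for 27 of 33 every one of the 16 skin libraries lay above every one of the 24 mast cell libraries. The exceptions were Tm7sf2, Ebp, Fads1, Fads2, Srebf2 and Abcg1. The share of all genes with that separation was not computed, so 27 of 33 is not shown to be particular to these genes. Genes at large also read higher in skin. The median FPKM of genes above 0 averaged 4.69 to 4.95 in the skin groups and 0.635 to 2.25 in the mast cell groups. Scd1, the stearoyl-CoA desaturase of sebaceous glands, was the most abundant, at 1761 ± 198 FPKM in Cre skin and 1288 ± 207 FPKM in PBS skin (SD, n = 4). Elovl6, which elongates palmitate, stood at 208 ± 14.01 FPKM in PBS skin, and Msmo1, a sterol demethylase, at 344 ± 49.05 FPKM. Skin and cells differ in cell makeup, and fewer cells of a type and less RNA per cell cannot be told apart in such bulk samples. Summed over 8 sebaceous markers, skin libraries reached 425 to 589.8 FPKM in Cre and 787 to 1099 FPKM in PBS ears, against at most 12.8 FPKM in any mast cell library.

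The 2 routes had unlike balances in the 10 groups. In each library the median FPKM over the 17 sterol enzymes was divided by the median over the 9 fatty acid genes. This ratio was 1.13 ± 0.151 in Cre skin, 1.0005 ± 0.0425 in DTR skin, 1.77 ± 0.112 in PBS skin and 1.68 ± 0.334 in β-alanine skin (SD, n = 4 each). Sorted mast cells stood at 1.43 ± 0.466 in Cre and 1.94 ± 0.625 in DTR cells, with overlapping libraries. The highest ratios were those of cultured cells, at 5.99 ± 0.613 with vehicle for 6 h, 5.65 ± 0.796 with vehicle for 48 h and 4.09 ± 0.385 with glutamate. With NS102 the ratio was 1.95 ± 0.148, and its libraries (1.74 to 2.08) lay below all vehicle libraries of 48 h (4.47 to 6.23). Behind that lower ratio, the sterol median rose from 5.57 ± 0.3602 to 8.71 ± 0.507 FPKM and the fatty acid median from 1.005 ± 0.188 to 4.503 ± 0.578 FPKM, with no overlap in either. In each vehicle library of 48 h the middle value of the 9 fatty acid genes was that of Fasn, so the median follows a single low gene there. With sums in place of medians, which Scd1 dominates in skin, the balance read otherwise. That ratio was 0.461 ± 0.0371 in Cre skin, 0.556 ± 0.0384 in DTR skin, 0.885 ± 0.0645 in PBS skin and 0.801 ± 0.0276 in β-alanine skin. It was 1.75 ± 0.127 and 1.76 ± 0.239 in sorted Cre and DTR cells. In culture it was 3.09 ± 0.186 with vehicle for 6 h and 4.21 ± 0.1403 with glutamate, the reverse of the order by medians, and 4.98 ± 0.241 with vehicle for 48 h and 3.53 ± 0.266 with NS102, the same order. By both measures every cultured group had a higher mean than every skin group. These ratios are descriptions of a chosen list and were not tested.

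**Figure D1:**
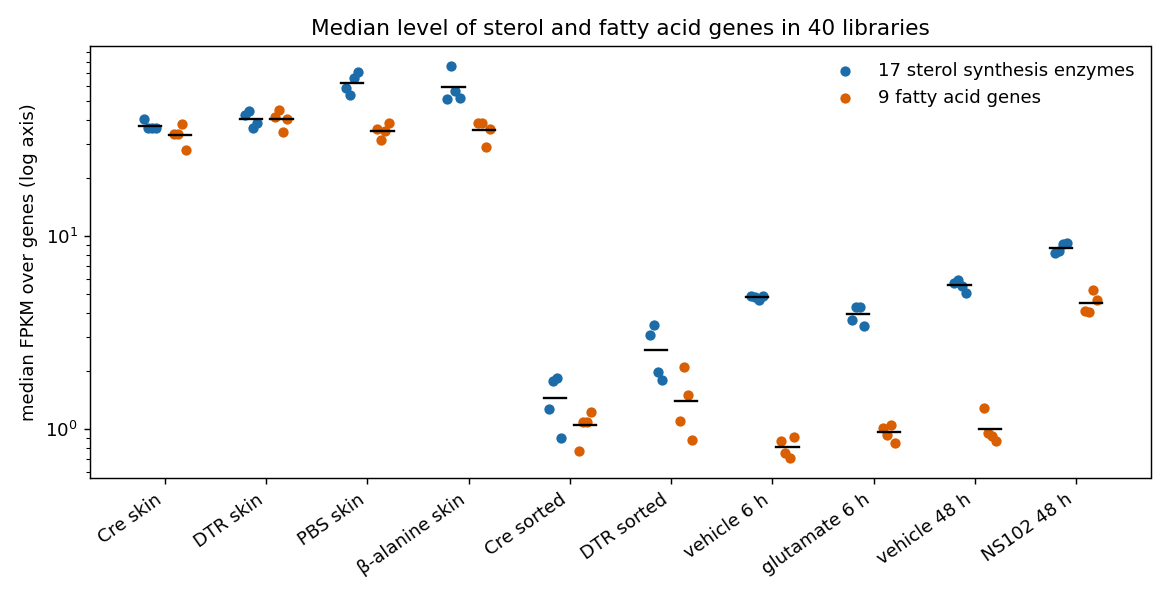
Median FPKM over 17 sterol enzymes (blue) and 9 fatty acid genes (orange) in each of 40 libraries, on a log axis, with the group mean as a bar. Skin groups sit highest, cultured cells without NS102 have fatty acid medians near 1 FPKM, and NS102 cells have a fatty acid median of 4.503 FPKM.

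The comparison of NS102 with vehicle at 48 h asks what the antagonist does to cultured mast cells, and here both routes rose nearly throughout. Of 29 members that passed the expression filter, 26 were higher and 2 lower, while 30.8% of the 8373 genes tested were higher and 39.7% lower. Fasn, Scd1 and Acsl3 are among the 26 but reached the filter only through the NS102 libraries, where they are high, so the filter fixed the direction of their calls. Without these 3, 23 of 26 members were higher, among them 14 of 16 sterol enzymes (median log2 change 0.66) and all 4 remaining fatty acid genes, Acly, Scd2, Fads1 and Fads2. Hsd17b7, Acaca, Elovl6 and Abca1 stayed below the filter. With no filter, all 33 members were tested, and 29 were higher and 2 lower, beside 23.7% of the 15280 genes then tested higher and 24.7% lower. Every NS102 library exceeded every vehicle library for 26 of the 29 members that passed the filter, beside 27.4% of the 8373 genes that passed it. Fasn, Scd1 and Acsl3, which reached the filter through the NS102 libraries, are among these 26. Over all 33 members, those below the filter included, the count was 30, and no share of all genes was computed for it.

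All 7 enzymes of the mevalonate arm rose. Hmgcs1, the HMG-CoA synthase that opens the sterol route, read 3.95, 3.86, 3.76 and 2.86 FPKM in the vehicle libraries and 8.18, 7.901, 9.14 and 9.27 FPKM with NS102, groups that do not overlap (log2 change 1.07 ± 0.09 (SE), adjusted p = 8.4e-07 by limma). Fdps, which makes farnesyl diphosphate, read 18.9, 17.3, 17.7 and 17.2 FPKM with vehicle and 51.1, 47.8, 47.6 and 52.8 FPKM with NS102 (log2 change 1.44 ± 0.06 (SE), adjusted p = 1.7e-09 by limma). Its NS102 libraries were all above 47 FPKM and its vehicle libraries all below 19 FPKM. Fdft1, the squalene synthase, went from 3.29 ± 0.121 to 8.11 ± 0.275 FPKM and Idi1, the isomerase, from 9.96 ± 1.18 to 19.7 ± 0.507 FPKM (SD, n = 4). Mvk, Pmvk and Mvd, which act between mevalonate and isopentenyl diphosphate, had smaller log2 changes of 0.21, 0.39 and 0.71.

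Past squalene, 7 of the 9 enzymes tested rose, and Ebp and Dhcr7 fell. Sqle, the squalene epoxidase and a slow step of the route, read 15.2, 13.9, 12.99 and 11.6 FPKM with vehicle and 32.6, 31.2, 32.1 and 34.6 FPKM with NS102 (log2 change 1.23 ± 0.07 (SE), adjusted p = 6.6e-08 by limma). The lowest NS102 library had more than the highest vehicle library by a wide gap. Cyp51, the lanosterol demethylase, went from 3.24 ± 0.169 to 7.65 ± 0.159 FPKM, and Lss, Tm7sf2, Msmo1 and Sc5d had log2 changes of 0.68, 0.61, 0.49 and 0.63. Nsdhl passed narrowly at 0.20 ± 0.08 (SE) with adjusted p = 0.0417 in limma, and lost the call without filter and when most single libraries were left out. Dhcr7, which makes cholesterol from 7-dehydrocholesterol, read 5.66, 5.17, 5.52 and 5.09 FPKM with vehicle and 3.69, 3.44, 3.302 and 3.13 FPKM with NS102. Its groups lay apart in the opposite direction (log2 change -0.54 ± 0.07 (SE), adjusted p = 2.6e-05 by limma). Ebp, the sterol isomerase, fell from 37.6 ± 1.54 to 31.02 ± 2.27 FPKM, a call that was lost after quantile normalization (adjusted p = 0.116, limma) and after a correction for transcript length (adjusted p = 0.339, limma).

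Scd2, a stearoyl-CoA desaturase, had the largest change of the members tested on the log2(FPKM + 1) scale. That scale understates the rises of the lower genes Fasn and Scd1. Scd2 read 10.4, 8.07, 8.11 and 9.397 FPKM with vehicle and 34.3, 35.9, 38.1 and 37.2 FPKM with NS102 (log2 change 1.91 ± 0.08 (SE), adjusted p = 2.5e-09 by limma). Fasn read 1.28, 0.953, 0.923 and 0.863 FPKM with vehicle and 4.07, 4.03, 6.35 and 5.96 FPKM with NS102 (log2 change 1.59 ± 0.13 (SE), adjusted p = 5.8e-07 by limma). In NS102 cells, Fasn libraries 1 and 2 sat near 4 FPKM and libraries 3 and 4 near 6 FPKM, all above the vehicle range. Only 1 vehicle library reached 1 FPKM, so Fasn entered the test through its NS102 libraries. Scd1 rose from 0.147 ± 0.03698 to 1.23 ± 0.1004 FPKM, a low level at which reads shared with its close paralog Scd2 could be split uncertainly by the counting. Fads2, the delta-6 desaturase, went from 1.62 ± 0.295 to 4.74 ± 0.387 FPKM, while its neighbour Fads1, the delta-5 desaturase, rose less (12.3 ± 0.637 to 14.8 ± 1.47 FPKM, log2 change 0.25). Acly, which supplies cytosolic acetyl-CoA, rose by 0.47 and Acsl3 by 0.57 on the log2 scale. Acaca, the acetyl-CoA carboxylase, was below the filter at 0.154, 0.138, 0.194 and 0.142 FPKM with vehicle and 0.709, 0.673, 0.979 and 1.05 FPKM with NS102.

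Regulators moved with the enzymes. Srebf1 read 7.603, 5.98, 6.54 and 6.83 FPKM with vehicle and 17.2, 16.1, 19.1 and 18.3 FPKM with NS102 (log2 change 1.27 ± 0.08 (SE), adjusted p = 6.3e-08 by limma). Srebf2 read 16.3, 11.9, 12.6 and 13.3 and 29.7, 28.5, 32.1 and 31.1 FPKM (log2 change 1.12 ± 0.08 (SE), adjusted p = 3.3e-07 by limma). Neither gene's groups overlapped. Insig1 rose from 6.096 ± 0.616 to 9.03 ± 0.644 FPKM and Scap by 0.40 on the log2 scale, whereas Stard4, a cytosolic sterol carrier, did not pass (3.3001 ± 0.512 and 3.504 ± 0.428 FPKM). Abcg1 went from 8.69 ± 0.138 to 16.4 ± 0.387 FPKM. Among 4 cultured groups, NS102 cells had the highest mean for 28 of the 33 members, a count for which the share of all genes was not computed. Of 26 other lipid pathway genes, 19 were tested, with 11 higher and 3 lower. Mid1ip1, which promotes carboxylase activity, rose from 8.56 ± 0.978 to 19.6 ± 1.46 FPKM, Me1, the malic enzyme, from 1.85 ± 0.143 to 5.12 ± 0.316 FPKM, and Lpin1, a phosphatidate phosphatase, from 2.98 ± 0.654 to 7.10 ± 1.36 FPKM (SD, n = 4).

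**Figure D2:**
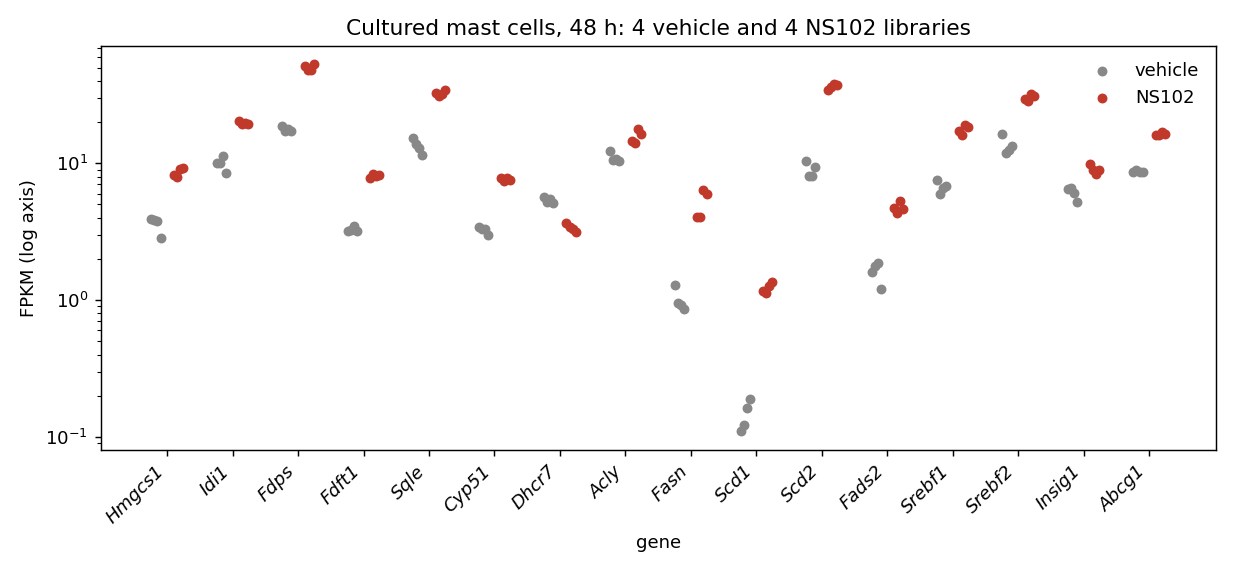
FPKM of 16 members in the 4 vehicle (grey) and 4 NS102 (red) libraries of cultured mast cells at 48 h, on a log axis, 1 point per library. Of the genes drawn, Dhcr7 alone lies lower with NS102, and the other 15 lie higher in every NS102 library.

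Longer transcripts had higher NS102 changes across genes (Spearman rho 0.381 over 8315 genes, a description since genes vary together). The longest transcript of the tested members had a median of 3698 bases, against 3075 over all genes tested. After a correction for this length the count of members higher was again 26. Mast cell markers summed to 65649 to 68324 FPKM in vehicle and 69721 to 82235 FPKM in NS102 libraries.

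Glutamate for 6 h, the comparison that asks what the transmitter does to mast cells, gave a divided picture. Of 26 members tested, 9 were higher and 11 lower, beside 16.9% of the 8297 genes tested higher and 62.4% lower. The members' median log2 change was -0.13 and that of all genes -0.33, so most genes shifted down together and directions rest on the scaling. With each library centred on its median, which moved the all-gene median to 0.08, 18 members were higher and 4 lower. Quantile normalization gave 17 and 4. The low calls of Hmgcs1, Fdft1, Sqle, Lss and Acly turned positive under both scalings and under the length correction, and that of Srebf2 under median centring alone, so these genes are given no direction. The call of Nsdhl was lost under all 3 (adjusted p from 0.364 to 0.871, limma), and it is given none either.

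Stard4 had the largest rise, from 2.25, 1.89, 2.26 and 2.48 FPKM with vehicle to 5.19, 5.04, 4.86 and 5.45 FPKM with glutamate (log2 change 0.93 ± 0.07 (SE), adjusted p = 7.9e-08 by limma). The groups were far apart. Msmo1 read 32.9, 36.8, 36.7 and 36.003 FPKM with vehicle and 52.1, 53.3, 53.9 and 53.2 FPKM with glutamate (log2 change 0.57 ± 0.04 (SE), adjusted p = 4.8e-08 by limma). Insig1 rose from 4.78 ± 0.277 to 7.39 ± 0.675 FPKM and Scd2 from 8.75 ± 0.767 to 12.4 ± 0.703 FPKM (SD, n = 4). Abcg1, Mvd, Fdps, Tm7sf2 and Srebf1 rose by 0.41, 0.41, 0.41, 0.34 and 0.30 on the log2 scale. Tm7sf2 was at 1 FPKM or more in only 2 vehicle and 3 glutamate libraries, so it reached the filter with the help of the group where it is higher. Without Tm7sf2, 8 of 25 members were higher and 11 lower.

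Fads1, by contrast, read 20.9, 21.8, 19.9 and 19.7 FPKM with vehicle and 8.297, 8.89, 9.16 and 7.59 FPKM with glutamate (log2 change -1.19 ± 0.06 (SE), adjusted p = 1.6e-09 by limma). Scap, which escorts the SREBP factors, read 4.06, 3.68, 3.89 and 4.17 and 1.48, 1.57, 1.43 and 1.23 FPKM (log2 change -1.03 ± 0.07 (SE), adjusted p = 2.2e-08 by limma). Mvk, the mevalonate kinase, went from 5.91 ± 0.6103 to 2.58 ± 0.107 FPKM and Ebp from 31.5 ± 1.297 to 20.8 ± 0.476 FPKM. All 4 have groups that do not overlap, but 62.4% of all genes tested were lower here, and the share of all genes with separated groups was not computed. All 4 were lower under both scalings and the length correction. Genes lower in these 3 settings were 2611 of 8297 with median centring, 3101 of 8297 with quantile normalization and 3114 of 8242 with length correction. Sqle read 7.42 ± 0.8496 and 5.46 ± 0.433 FPKM before any rescaling. Fasn and Scd1 were below the filter. Of 19 other lipid pathway genes tested, 4 were higher and 12 lower, among them Me1 (1.31 ± 0.180 to 3.90 ± 0.450 FPKM), Lpcat3, which remodels phospholipids (36.1 ± 0.328 to 15.3 ± 0.772 FPKM), and Mbtps1, the Golgi protease that cuts SREBP factors (9.47 ± 0.536 to 3.98 ± 0.539 FPKM).

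Set beside the NS102 comparison, which has its own controls, 8 members were higher in both before any rescaling. Mvk, Fads1 and Scap were lower with glutamate and higher with NS102, with and without rescaling. Another 7 had that pattern only before rescaling, and with both comparisons centred on library medians 16 members were higher in both. The difference between these effects was not tested, and the times and media differ.

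Vehicle cells at 48 h and 6 h differ in time and in medium, which cannot be told apart, and these groups are the controls of the preceding comparisons. Of 26 members tested, 12 were higher at 48 h and 8 lower, beside 34.2% of the 8467 genes tested higher and 37.7% lower. The members' shares were 46.2% and 30.8%. Sterol enzymes were higher in 10 and lower in 2 of 16, and the fatty acid genes higher in 0 and lower in 3 of 4. Only these 4 of the 9 fatty acid genes passed the filter. The low calls of Acly, Cyp51 and Scap were lost with median centring (adjusted p = 0.113, 0.0994 and 0.113, limma) and with length correction (adjusted p = 0.236, 0.115 and 0.167, limma). Srebf2 read 40.1, 38.6, 34.8 and 37.5 FPKM at 6 h and 16.3, 11.9, 12.6 and 13.3 FPKM at 48 h, with no overlap (log2 change -1.42 ± 0.08 (SE), adjusted p = 1.4e-09 by limma). Srebf1 went from 13.2 ± 1.298 to 6.74 ± 0.676 FPKM and Fads1 from 20.6 ± 0.965 to 12.3 ± 0.637 FPKM. In the other direction, Sqle went from 7.42 ± 0.8496 to 13.4 ± 1.53 FPKM, and Tm7sf2, Msmo1, Mvd and Idi1 had log2 changes of 0.53, 0.47, 0.46 and 0.45. Tm7sf2 was at 1 FPKM or more in only 2 libraries at 6 h. Insig1 read 4.78 ± 0.277 and 6.096 ± 0.616 FPKM (log2 change 0.29), and Fasn and Scd1 were below the filter. Without replicate 1 of the 6 h cells, 5 members were lower in place of 8. Of 19 other pathway genes tested, 5 were higher and 7 lower, and the largest changes were those of Lpin1 (10.5 ± 1.08 to 2.98 ± 0.654 FPKM), Nr1h2, a liver X receptor (31.3 ± 2.197 to 17.2 ± 1.66 FPKM), and Pnpla2, the adipose triglyceride lipase (23.1 ± 1.09 to 12.96 ± 1.14 FPKM).

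**Figure D3:**
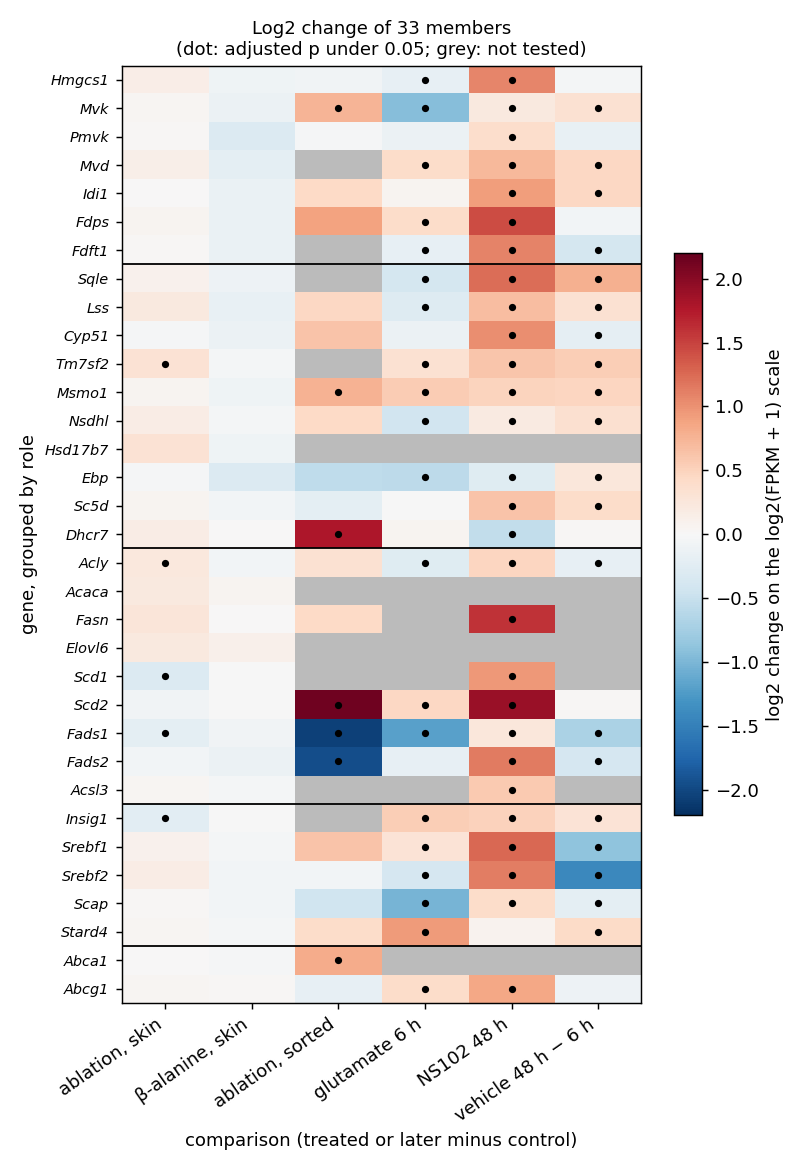
Log2 change of the 33 members (rows, grouped by role) in 6 comparisons (columns), on the log2(FPKM + 1) scale, with red for higher and blue for lower in the treated or later group. Dots mark adjusted p under 0.05 by limma and grey marks genes not tested; NS102 has 26 higher and 2 lower members, and β-alanine has no dot.

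Mast cells sorted from DTR mice, set against those of Cre mice, differed in several desaturases. Of 23 members tested, 5 were higher and 2 lower, beside 18.9% of the 8871 genes tested higher and 16.9% lower, where the members' shares were 21.7% and 8.70%. Scd2 and Msmo1, both higher, were the only members past the test among the 11 at 1 FPKM or more in every sorted library. The other 5, Dhcr7, Mvk, Abca1, Fads1 and Fads2, fell short of the 4-library filter in the group where they are lower and reached it with the help of the other group. With no filter, all 33 members were tested, and 4 were higher and 2 lower, beside 5.79% of the 22601 genes then tested higher and 5.81% lower. Fads1 and Fads2 were the 2 lower, and Scd2, Dhcr7, Msmo1 and Acsl3 the 4 higher. Scd2 read 2.15, 2.803, 3.36 and 4.85 FPKM in Cre cells and 19.8, 23.3, 13.9 and 14.1 FPKM in DTR cells, without overlap (log2 change 2.14 ± 0.25 (SE), adjusted p = 1.5e-06 by limma). Fads1 read 10.8, 11.9, 9.24 and 6.85 FPKM in Cre cells and 1.65, 2.09, 1.496 and 0.965 FPKM in DTR cells (log2 change -2.06 ± 0.25 (SE), adjusted p = 1.5e-06 by limma). Fads2, which lies beside Fads1, read 3.54, 3.35, 4.73 and 1.23 FPKM in Cre cells and was listed at 0 in 3 DTR libraries and at 0.113 FPKM in the other (log2 change -1.96 ± 0.25 (SE), adjusted p = 4.5e-06 by limma), a gene that passed the filter through the Cre libraries alone. Every Cre library thus lay above every DTR library for both Fads genes. With a library of the Cre group left out, Fads2 no longer passed the filter of 4 libraries and went untested, and with a filter of 3 libraries, set after that was seen, both Fads genes were tested and lower.

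Dhcr7 read 3.06, 2.28, 3.85 and 0.176 FPKM in Cre cells and 11.2, 8.52, 8.71 and 8.501 FPKM in DTR cells (log2 change 1.78 ± 0.34 (SE), adjusted p = 3.2e-04 by limma). Cre library 4 lies far below the other Cre libraries, and all DTR libraries lie above all of them. Msmo1 went from 5.43 ± 1.43 to 9.797 ± 1.76 FPKM, Mvk, at 1 FPKM or more in 1 Cre library and all 4 DTR libraries, from 0.606 ± 0.471 to 1.62 ± 0.471 FPKM, and Abca1 from 1.11 ± 0.608 to 2.72 ± 1.05 FPKM, calls that were each lost under several settings, such as without DTR library 1 or 2 (adjusted p from 0.0528 to 0.0794, limma). Without Cre library 4, 9 members were higher in place of 5, and without DTR library 1 or 2 only 2 were. Fasn read 0.863 ± 0.295 and 1.54 ± 0.461 FPKM and did not pass (adjusted p = 0.118, limma). Insig1, Sqle and Scd1 were among the 10 members below the filter.

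Of 19 other lipid pathway genes tested in the sorted cells, 4 were higher and 3 lower. On the log2(FPKM + 1) scale Dgat1 and Acss2 had larger changes than any member, at -3.39 and -2.69. That scale understates the fall of the member Fads2, whose mean in DTR cells was 0.0283 FPKM. Dgat1, which completes triglyceride synthesis, went from 58.4 ± 13.3 to 4.58 ± 0.588 FPKM, Acss2, which activates acetate, from 20.1 ± 3.19 to 2.32 ± 0.789 FPKM, and Acsl1, a fatty acyl-CoA synthetase, from 4.04 ± 1.45 to 1.21 ± 0.516 FPKM (SD, n = 4). Markers listed for basophils and for macrophages and monocytes also differed between the same libraries. The 5 basophil markers summed to 532 to 836 FPKM in Cre and 113 to 198 FPKM in DTR libraries, and 8 macrophage and monocyte markers to 41.4 to 51.5 and 6.85 to 17.4 FPKM. The basophil protease Mcpt8 stood at 343 and 2.11 FPKM. In the cultured mast cell libraries the 5 basophil markers summed to 567 to 1060 FPKM and the 8 macrophage and monocyte markers to 15.8 to 42.3 FPKM. Neither sum therefore identifies other blood cells by itself. Mast cell markers summed to 9129 to 13794 FPKM in Cre and 17727 to 28822 FPKM in DTR libraries. The part of these shifts in the changes of lipid genes was not tested.

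**Figure D4:**
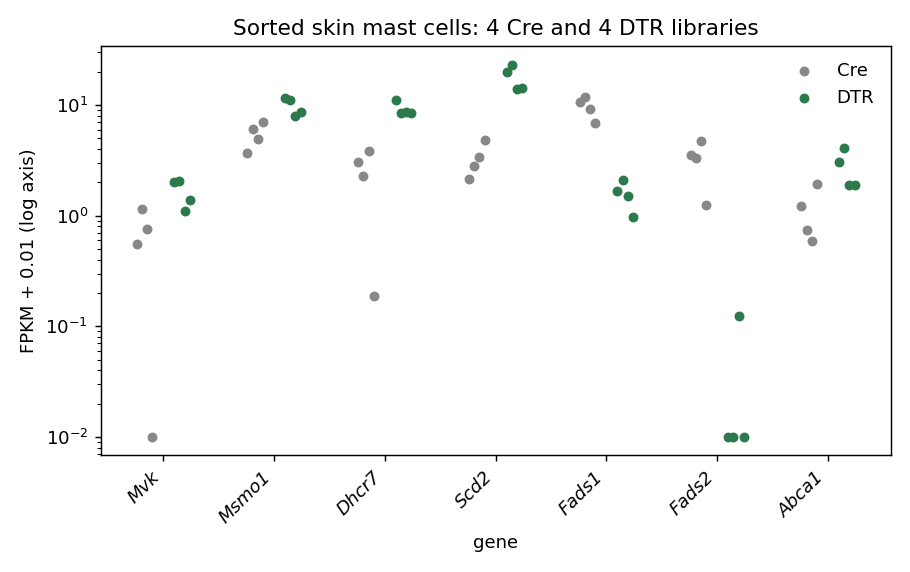
FPKM + 0.01 of the 7 members past the test in sorted skin mast cells, in 4 Cre (grey) and 4 DTR (green) libraries on a log axis; values listed at 0 sit at 0.01. Scd2 and Dhcr7 are higher and Fads1 and Fads2 lower in every DTR library.

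Whole skin after ablation showed small changes only. Of 33 members, 2 were higher and 3 lower, beside 7.38% of the 12607 genes tested higher and 6.25% lower, so shares were near those of all genes. Scd1 read 1967, 1686, 1868 and 1521 FPKM in Cre and 1440.4, 1502, 1315 and 1463 FPKM in DTR skin (log2 change -0.29 ± 0.08 (SE), adjusted p = 0.0384 by limma). Insig1 went from 39.3 ± 1.62 to 33.2 ± 2.18 FPKM and Fads1 from 9.07 ± 0.678 to 7.64 ± 0.607 FPKM. Tm7sf2, a sterol reductase, went from 3.74 ± 0.283 to 4.93 ± 0.355 FPKM and Acly from 53.3 ± 3.19 to 63.2 ± 5.004 FPKM. Neither Sqle (log2 change 0.10 ± 0.06 (SE)) nor Fasn (0.27 ± 0.10 (SE)) passed. With a spread shared across all 4 skin groups, 0 members passed in either direction, and leaving out single libraries gave 1 to 4 higher and 1 to 2 lower. Of 26 other pathway genes, 1 was higher and 3 lower, with Thrsp, a lipogenic gene of adipocytes, at 7.94 ± 0.898 and 4.50 ± 1.04 FPKM, Pnpla2 at 37.7 ± 2.55 and 25.9 ± 1.49 FPKM and Acss2 at 11.2 ± 0.891 and 13.7 ± 1.07 FPKM (SD, n = 4). With the shared spread, Thrsp and Acss2 did not pass (adjusted p = 0.203 and 0.0896, limma), and Acss2 was lost also without filter, with the replicate block and in 6 of the 8 fits that leave out a library. The 10 adipocyte markers summed to 527 to 631 FPKM in Cre and 235 to 283 FPKM in DTR skin, and 8 sebaceous markers to 425 to 589.8 and 520.5 to 651 FPKM. Their part in these changes was not tested.

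β-alanine on the ear left no member past the test, with 0 higher and 0 lower of 33, beside 0.0157% of the 12709 genes tested higher and 0.197% lower. At an unadjusted p under 0.05 there were 2 members, Ebp (log2 change -0.30 ± 0.07 (SE)) and Pmvk (-0.31 ± 0.10 (SE)), both lower with β-alanine in limma. Sqle read 84.2 ± 6.58 FPKM in PBS and 77.9 ± 9.404 FPKM in β-alanine skin, Scd1 1288 ± 207 and 1296 ± 276 FPKM, Fasn 35.1 ± 2.88 and 35.4 ± 4.51 FPKM, and Insig1 32.1 ± 2.63 and 31.9 ± 4.99 FPKM, all overlapping. Mast cell markers differed between these libraries, at 209 to 254 FPKM summed in PBS and 3.396 to 7.47 FPKM in β-alanine ears, and their part in the values above was not tested. No other pathway gene passed, with 0 of 26 at an unadjusted p under 0.05.

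An interaction term over 16 libraries asked whether ablation acted alike in sorted cells and in skin. It was past the test for 7 members with a higher and 3 with a lower effect in sorted cells, beside 14.4% and 13.3% of the 13153 genes tested. The largest were Scd2 (difference 2.21 ± 0.25 (SE), adjusted p = 6.5e-06 by limma), Fads2 (-1.90 ± 0.29 (SE), adjusted p = 1.4e-04 by limma), Fads1 (-1.84 ± 0.22 (SE), adjusted p = 1.0e-05 by limma) and Dhcr7 (1.63 ± 0.43 (SE), adjusted p = 0.00969 by limma). Skin values of Scd2 were 68.5, 69.3, 68.7 and 69.01 FPKM in Cre and 68.4, 65.7, 62.7 and 64.7 FPKM in DTR ears, close to each other where sorted cells lay apart. Abca1, Msmo1, Insig1, Acsl3, Fdft1 and Scap had differences of 0.81, 0.70, 0.65, 0.55, 0.52 and -0.47, and each of these calls was lost under at least 1 other setting. Insig1, Acsl3 and Fdft1 were below the filter in the comparison within sorted cells and entered this test through the skin libraries, where they are high. Insig1 and Acsl3 reached 1 FPKM in 0 sorted libraries, and Fdft1 in 0 Cre and 3 DTR libraries. Neither Sqle (0.06 ± 0.19 (SE)), Fasn (0.17 ± 0.21 (SE)) nor Scd1 (0.98 ± 0.43 (SE)) passed. Sorted cells were from males and skin from females by their transcripts, so tissue and sex cannot be told apart here.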

How the data were processed

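The authors deposited 1 table of 23812 rows whose header names no unit; its values behave as FPKM. Per the submitters' processing notes, STAR, Cufflinks and genome build mm9 were used, with no versions. The annotation, the filters and the strand setting are not given in the sources used here, and the table lists no counts, so depth is unknown. Low values gave depths of 0.574 to 1.41 relative to replicate 1 of a group. Groups came from the labels, and 0 columns were left unmapped.

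From the deposited FPKM, log2(FPKM + 1) was fitted with limma 3.58.1 in R 4.3.3 (mean-variance trend, two-sided, Benjamini-Hochberg over all genes tested, filter of 1 FPKM in 4 libraries), for each comparison's own libraries. Named members are those past the test, up to 8 with the largest changes, with Insig1, Sqle, Fasn and Scd1 always given, and up to 3 other pathway genes. Further members past the test are given more briefly. Members and lists were chosen with earlier results of these data known. The procedure was tested on simulated data. Lengths were those of the longest GENCODE transcript on GRCm38. Deviations of same-numbered libraries correlated at -0.25 to 0.46. The highest values were 0.46 between vehicle cells of 6 h and 48 h and 0.37 between PBS and β-alanine skin. Figures used matplotlib in Python.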

Additional observations from a re-analysis of the deposited data

Results flagged for a closer look

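Among the members tested for a library far from the other 3 of its group, 5 sets of 125 qualified, where chance gives about 1 in 20. Acly stood high in replicate 2 of glutamate at 6 h (11.3 FPKM), Dhcr7 in replicate 1 of sorted DTR cells (11.2 FPKM), Fads2 in replicate 3 of sorted DTR cells (0.113 FPKM, the other 3 listed at 0) and Fdft1 in replicate 3 of vehicle at 48 h (3.47 FPKM). Lss stood low in replicate 3 of vehicle at 6 h (4.28 FPKM).

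Ablation effects in sorted cells and in skin differed by the interaction term for 10 members. On the log2 scale, sorted minus skin, the differences were 2.21 for Scd2, 1.63 for Dhcr7, 0.81 for Abca1, 0.70 for Msmo1, 0.65 for Insig1, 0.55 for Acsl3, 0.52 for Fdft1, -0.47 for Scap, -1.84 for Fads1 and -1.90 for Fads2. Insig1, Acsl3 and Fdft1 were below the filter within sorted cells and were tested here only through the skin libraries.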

How the results depend on the processing

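The NS102 count of 26 members higher held under both pseudocounts, median centring, quantile normalization, shared spread and length correction, was 25 with the replicate number as a block, 29 without filter and 18 with a filter of 5 FPKM, and ranged from 23 to 26 with single libraries left out, or 25 to 27 with the filter in 3 libraries. Members lower with NS102 were 1 after quantile normalization and length correction. For skin ablation, higher and lower members were 1 and 1 without filter and 0 and 0 with shared spread; higher were 1 at 5 FPKM and with length correction, lower were 1 with the replicate block, and single libraries left out gave 1 to 4 higher and 1 to 2 lower. In sorted cells 3 were higher and 1 lower at 5 FPKM, and 4 lower with median centring, quantile normalization and length correction. Leaving out single libraries gave 2 to 9 higher and 1 to 3 lower, or 2 to 10 and 2 to 3 with the filter in 3 libraries, a setting chosen, like the length correction, after seeing the data. For glutamate 6 were lower at 5 FPKM. Higher and lower members were 18 and 4 with median centring, 17 and 4 with quantile normalization and 16 and 4 with length correction. In these 3 settings in turn, the log2 changes turned to 0.23, 0.23 and 0.19 for Hmgcs1, 0.22, 0.23 and 0.19 for Fdft1, 0.033, 0.020 and 0.0025 for Sqle, 0.13, 0.13 and 0.057 for Lss, and 0.15, 0.074 and 0.12 for Acly, with Srebf2 at 0.040 after median centring. For vehicle at 48 h against 6 h, 4 were lower at 5 FPKM and 5 with median centring, and 5 to 9 with single libraries left out. The interaction had 4 higher at a pseudocount of 5 and 4 to 8 with single libraries left out. There Sqle turned to -0.053 and Fasn to -0.086 at a pseudocount of 5, Sqle to -0.031 with length correction, and Sqle ranged from -0.050 to 0.164 with libraries left out. For β-alanine, where no member passed under any setting, Insig1 turned to 0.032 and Scd1 to 0.047 with median centring, to 0.027 and 0.015 with quantile normalization, and Insig1, Fasn and Scd1 to 0.051, -0.026 and 0.035 with length correction; libraries left out gave -0.0979 to 0.0651 for Insig1, -0.0438 to 0.0995 for Fasn and -0.136 to 0.09498 for Scd1. Apart from shifts that follow from fewer genes or libraries, the cause was not tested. Depth is unknown, and many sorted-cell members lie near or below 1 FPKM. The ratio of sterol to fatty acid genes moved with sums in place of medians, chosen after seeing the data, to 0.461 in Cre, 0.556 in DTR, 0.885 in PBS and 0.801 in β-alanine skin, 3.09 with vehicle for 6 h and 3.53 with NS102.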
